A study of Mus musculus with 2 samples.

Results

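The genes described here are 35 genes of the endoplasmic reticulum (ER) of mouse liver: the sensors of the unfolded protein response, the chaperones and oxidative folding enzymes of the lumen, the machinery of ER-associated degradation (ERAD), subunits of the translocon and a pair of COPII coat proteins. They were chosen by name: every non-control probe whose gene name in the array file was one of the 35 was taken, with Ero1l and Ero1lb also accepted as Ero1a and Ero1b. All 35 were found, on 47 probes and 56 spots, out of 31045 genes and 39429 probes on the array. The RNA came from livers of Pnpla8-/- mice, which lack a phospholipase that releases fatty acids from membrane phospholipids, and of wild-type mice, both of the C57BL/6N strain. Each genotype was measured on 1 one-colour Agilent array, hybridised with a pool made from equal RNA amounts of 5 animals. The sample labels put the mice at 6 weeks of age and the series' design text at 8 weeks, and this was not settled. The part of Pnpla8 that was removed, and whether any cell type was targeted, are not stated in the labels. Since a single pool on a single array stands for each genotype, the differences below have no replicate check and no test, and the effects of genotype, of the pool and of the position on the slide cannot be told apart.

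Secreted and membrane proteins enter the ER through the SEC61 translocon, fold with the help of chaperones and disulfide isomerases, and leave in COPII vesicles, while proteins that fail to fold are drawn back to the cytosol and degraded by ERAD. When unfolded protein builds up, the membrane sensors IRE1, ATF6 and PERK raise the folding capacity: IRE1 splices the Xbp1 messenger, and the XBP1 and ATF6 proteins switch on chaperone and ERAD genes. Hepatocytes secrete most plasma proteins and hold an extensive rough ER, and the same system is linked to lipid synthesis in the liver.

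A known mark of XBP1 and ATF6 target genes is the ER stress response element (ERSE), read here as CCAAT, 9 bases of any kind and CCACG. It was searched on both strands of RefSeq promoter windows (GRCm38.p6, 250 bases before to 50 after each gene's start). Of the 29 members with a window, 10 held it (34.5%), against 37 of all 27025 genes with a window (0.137%). No window was at hand for Atf6, Manf, Hyou1, Derl1, Sec61a1 and Hspa13. These are the elements themselves, each printed 5′ to 3′ on the strand given, with the fixed letters in capitals. They are shown so that each gene's ratio, given further on, can be read beside its element.
Derl3 (chr10:75893242-75893260, minus strand): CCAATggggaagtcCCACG
Creld2 (chr15:88819520-88819538, minus strand): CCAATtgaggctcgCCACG
Ero1lb (chr13:12565682-12565700, minus strand): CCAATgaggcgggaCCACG
Calr (chr8:84847075-84847093, plus strand): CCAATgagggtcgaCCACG
Pdia6 (chr12:17266491-17266509, plus strand): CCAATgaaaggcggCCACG
Dnajc3 (chr14:118937827-118937845, plus strand): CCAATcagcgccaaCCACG
Hspa5 (chr2:34772025-34772043, plus strand): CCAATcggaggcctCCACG
Syvn1 (chr19:6046532-6046550, plus strand): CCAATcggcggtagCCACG
Canx (chr11:50325800-50325818, minus strand): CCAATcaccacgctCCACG
Hsp90b1, distal (chr10:86705638-86705656, minus strand): CCAATcgcaaggagCCACG
Hsp90b1, proximal (chr10:86705533-86705551, plus strand): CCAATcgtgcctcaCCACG

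The 250 bases before the start are shown for 3 genes whose ratios stood at different points of the range: Derl3 with the lowest, Hspa5 near the middle and Herpud1 with the highest. Each is printed on its gene's own strand, which is the plus strand for all 3. The capitals mark the fixed letters of the ERSE in Derl3 (on the opposite strand, so it reads CGTGG, 9 bases and ATTGG) and in Hspa5, and in Herpud1 those of the shorter ERSE-II, read as ATTGG, 1 base and CCACG.
Derl3 (chr10:75893148-75893397): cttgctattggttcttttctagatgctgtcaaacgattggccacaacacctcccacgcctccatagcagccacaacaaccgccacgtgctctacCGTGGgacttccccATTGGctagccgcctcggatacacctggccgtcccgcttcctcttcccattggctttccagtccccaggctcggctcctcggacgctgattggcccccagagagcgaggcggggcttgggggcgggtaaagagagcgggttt
Hspa5 (chr2:34771840-34772089): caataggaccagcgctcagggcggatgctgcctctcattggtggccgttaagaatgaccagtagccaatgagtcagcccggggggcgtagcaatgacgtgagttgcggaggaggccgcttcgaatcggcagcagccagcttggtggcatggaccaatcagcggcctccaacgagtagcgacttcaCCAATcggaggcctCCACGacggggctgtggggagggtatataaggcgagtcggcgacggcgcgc
Herpud1 (chr8:94386179-94386428): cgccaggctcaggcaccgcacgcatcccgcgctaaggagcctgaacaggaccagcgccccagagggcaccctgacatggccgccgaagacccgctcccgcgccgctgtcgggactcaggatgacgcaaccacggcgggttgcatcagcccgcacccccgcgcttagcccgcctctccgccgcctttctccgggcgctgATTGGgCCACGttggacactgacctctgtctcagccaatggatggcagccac

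The signal quoted below is the scanner software's background-subtracted and detrended spot intensity. The log2 ratio is that of the knockout over the wild-type pool after each array was divided by its 75th percentile (1018 for the knockout array, 1207 for the wild-type one), so equal signals give a ratio above 0. The knockout array had 28212 of 43020 non-control spots (65.6%) well above background, the wild-type array 30141 (70.1%), and none was saturated. All 47 member probes were well above background on both arrays. The log2 ratio had a median SD of 0.045 between spots of 1 probe (282 probes) and of 0.095 between probes of 1 gene (4285 genes), and 3 times the second, 0.285, is used below as a yardstick of technical spread. The scanner software's own error of a member's log2 ratio, which includes a preset 10% per array, lay between 0.20 and 0.33. Neither measures the spread between animals, and precision is limited by having 1 array per genotype. The yardstick also cannot see variation between repeated labellings or hybridisations, since all probes of a gene share the same arrays. Pnpla8 itself read 4.45 in the knockout pool, not well above background, against 144.5 in the wild-type pool, and was at least 6.81-fold lower. For this bound, the knockout value was set to the dimmest signal of its array still well above background, 17.9. A probe outside the removed part would check nothing.

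Most of the 35 genes were lower in the knockout pool. The log2 ratio had a median of -0.29 and a mean of -0.37 over them, with 30 genes below 0 and 5 above. Over all 19936 genes measured on both arrays the median was 0.04 and 43.1% lay below 0, against 85.7% of the members. Derl3, Sdf2l1 and Fkbp11 were at least 2-fold lower, 3 of 35 members (8.57%) where 1.85% of all genes were, and 0 members were at least 2-fold higher, where 1.29% of all genes were. At 1.5-fold, 9 members (25.7%) were lower, against 5.93% of all genes, and 1 member (2.86%), Herpud1, was higher, against 4.41%. Beyond the technical yardstick of 0.285, 18 members were lower, where 14.6% of all genes were, and 2 (Herpud1 and Ero1l) were higher, where 16.6% of all genes were. The other 15 members stayed within it. At the probe level 41 of 47 ratios were below 0, and before any scaling 43 of 47 probes (91.5%) had the lower signal in the knockout pool, as did 79.3% of all 25164 probes well above background on both arrays. In a bulk sample like this one, fewer cells of a type and less RNA per cell cannot be told apart.

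**Figure D1:**
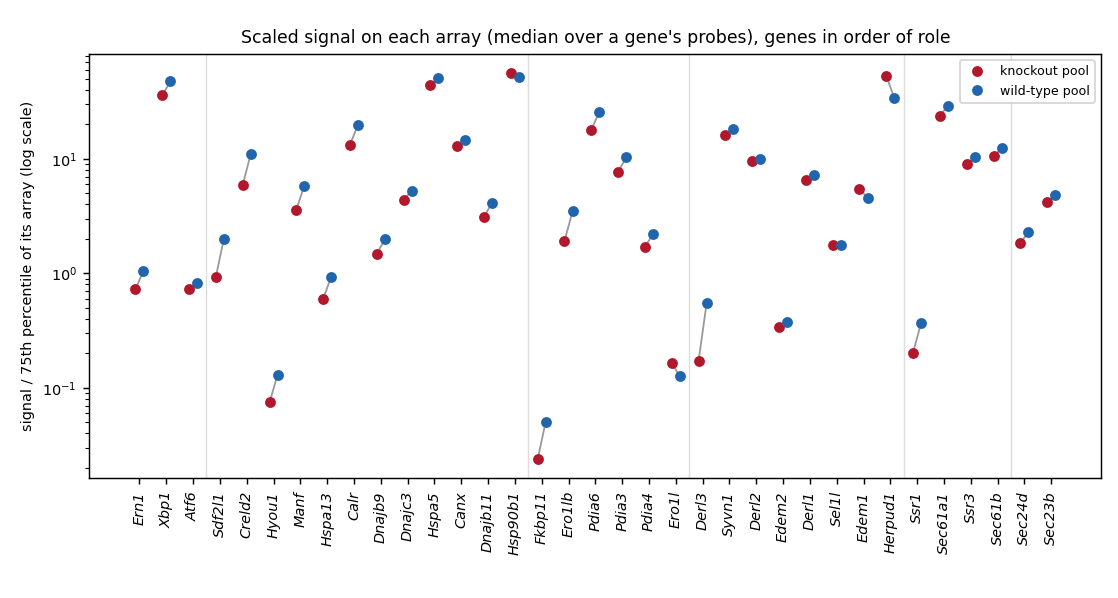
Scaled signal of each of the 35 genes on a log axis (signal divided by the 75th percentile of its array, median over a gene's probes), with the knockout pool in red on the left and the wild-type pool in blue on the right of each pair. Red lies below blue for 30 genes, most steeply for Derl3, and heights are not comparable between genes because each probe binds with its own strength.

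The sensors and the transcription factor they act through were all lower. Ern1, which encodes the kinase and endonuclease IRE1, read 741 in the knockout pool against 1270 in the wild-type pool, a log2 ratio of -0.53. Xbp1, the messenger that IRE1 splices, read 36556 in the knockout pool against 57337 in the wild-type pool, a ratio of -0.40. Its probe does not separate the spliced from the unspliced form, so the splicing itself was not measured. Atf6, whose protein is cut in the Golgi to release a transcription factor, read 750 in the knockout pool against 988 in the wild-type pool, and its ratio of -0.15 was within the yardstick. The median of the 3 was -0.40, and none reached 1.5-fold.

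Among the 12 chaperones and cofactors 11 were below 0, with a median of -0.51, and 5 were at least 1.5-fold lower. Sdf2l1, a lumenal cofactor of the BiP chaperone complex, read 954 in the knockout pool against 2432 in the wild-type pool and was 2.15-fold lower. It was the only chaperone past 2-fold. Creld2, a small secreted and ER-resident protein known as an early target of the stress response, was spotted 10 times, and 1 spot was left out as an outlier. Its 9 spots ran from 5784 to 6513 with a median of 5962 on the knockout array, and from 12827 to 13912 with a median of 13237 on the wild-type array. The ratio was -0.90 (1.86-fold lower). Creld2 was the only member with several spots per probe, and its spots share 1 RNA pool per genotype. Manf, an ER-resident and secreted factor that binds BiP, read 3675 in the knockout pool against 7061 in the wild-type pool (-0.70). Hyou1, a large member of the HSP70 family that acts as exchange factor for BiP, read 75.8 in the knockout pool against 156.5 in the wild-type pool (-0.80). That probe was dim, and with another background correction (normexp with an offset of 50) its ratio was -0.41.

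Hspa13, a microsomal HSP70 relative, had 2 probes that gave -0.73 and -0.64. With the normexp background its ratio was -0.46. Calreticulin, encoded by Calr, binds calcium and monoglucosylated glycoproteins, and it read 13535 in the knockout pool against 23931 in the wild-type pool (-0.58, just short of 1.5-fold). Its membrane-bound partner calnexin, Canx, read 13216 in the knockout pool against 17678 in the wild-type pool, and its ratio of -0.17 was within the yardstick. The 2 lectin chaperones thus differed in size though not in direction.

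The classical chaperones BiP and GRP94 lay nearer to 0. Hspa5, which encodes BiP, the master HSP70 chaperone that also holds the sensors inactive, read 44747 in the knockout pool against 61294 in the wild-type pool, a ratio of -0.21. Hsp90b1, which encodes GRP94, the HSP90 of the ER lumen, read 57186 in the knockout pool against 62697 in the wild-type pool, which after scaling was 0.11, and it was below 0 under 4 of 13 other settings. Both deviations were within the yardstick. Among the J-domain cofactors of BiP, Dnajc3, which also restrains PERK, had -0.24, and Dnajb11 had a median of -0.08 from 2 probes that disagreed, at -0.43 and 0.26.

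Dnajb9, the BiP cofactor that represses IRE1, had 2 probes that agreed, at -0.42 and -0.45. The brighter read 2822 in the knockout pool against 4483 in the wild-type pool, and the dimmer 187 in the knockout pool against 303 in the wild-type pool. In RefSeq order Dnajb9 is the protein-coding gene directly beside Pnpla8, and its probes lie 106.86 and 105.9 kb from the Pnpla8 probe (mm9). Of the other neighbours within 5 coding genes on either side, Lrrn3 had -0.50, Stxbp6 -0.37, Immp2l 0.32, Dock4 0.16, Nova1 0.09 and Zfp277 0.06. Whether the position of Dnajb9 bears on its ratio was not tested, and the median of the other 34 members was -0.27.

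Oxidative folding genes had a median of -0.48, with 5 of 6 below 0. Ero1lb, the oxidase that recharges disulfide isomerases and is prominent in secretory cells, read 1952 in the knockout pool against 4207 in the wild-type pool (-0.86, 1.82-fold lower). Its paralogue Ero1l went the other way, at 167 in the knockout pool against 152.3 in the wild-type pool (0.38). The array file places the single Ero1l probe on chromosome 7, while RefSeq has the gene on chromosome 14, so the identity of that value is uncertain. Fkbp11, a prolyl isomerase of secretory tissues, read 24.3 in the knockout pool against 61.2 in the wild-type pool and was 2.13-fold lower. It was the dimmest member, and with the normexp background its ratio was -0.24.

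The protein disulfide isomerases kept closer together. Pdia6, which forms disulfides and attenuates IRE1, had 2 probes at -0.56 and -0.52. Pdia3, the isomerase that works with calreticulin and calnexin, read 7832 in the knockout pool against 12451 in the wild-type pool (-0.42). Pdia4, a larger isomerase with additional thioredoxin-like domains, read 1729 in the knockout pool against 2665 in the wild-type pool (-0.38). All 3 deviated beyond the yardstick, and none reached 1.5-fold.

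**Figure D2:**
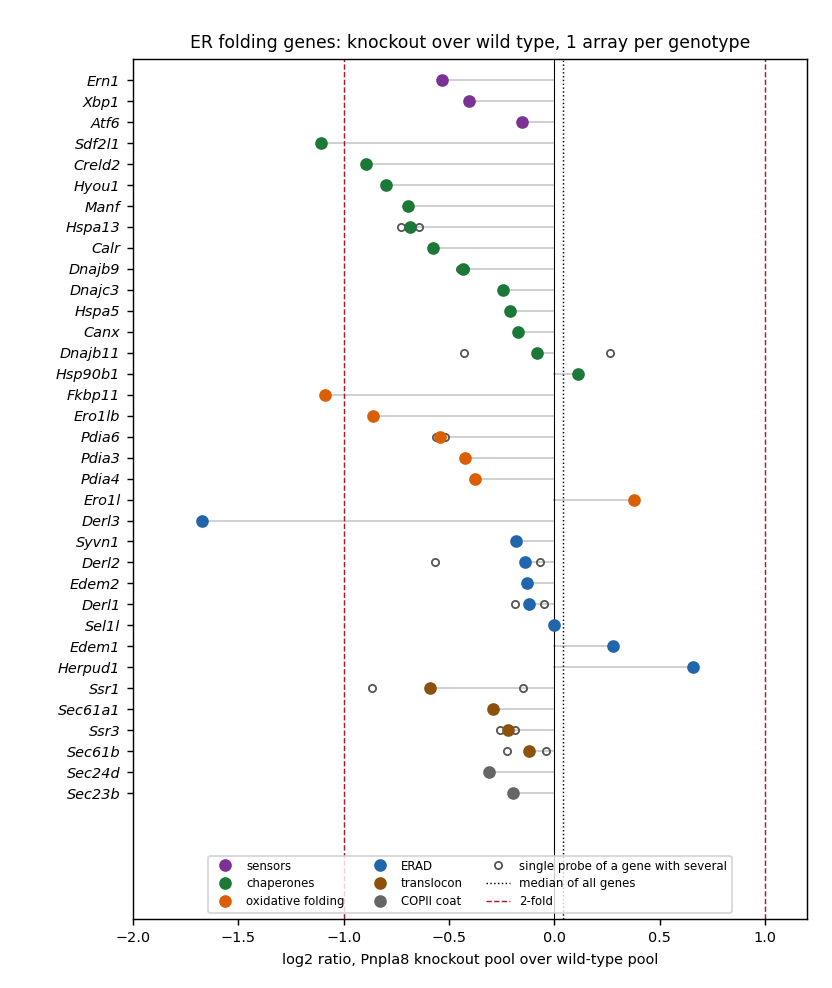
Log2 ratio of the knockout over the wild-type pool for each member (filled points, median over probes, coloured by role, lowest ratio at the top of each role) and for single probes of genes with several (open circles). Derl3, Sdf2l1 and Fkbp11 lie left of the dashed line at 2-fold lower, Herpud1 at 0.66 lies farthest right, and the dotted line is the median of all genes, 0.04.

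The 8 ERAD genes split most widely, with the lowest and the highest ratio of all members among them and a median of -0.12. Derl3, a derlin of the channel that moves misfolded proteins out of the ER, read 175.4 in the knockout pool against 662.6 in the wild-type pool. It was 3.19-fold lower, and 0.231% of all measured genes had a ratio that low or lower. With the normexp background its ratio was -1.29. Its paralogues differed little: Derl1 had -0.12 from 2 probes (-0.19 and -0.05), and Derl2 had -0.14 from 3 probes (-0.57, -0.14 and -0.07). The Derl1 probe at -0.19 is placed by the file on chromosome 12 and not on 15, where the gene lies. The array file places the Derl3 probe on chromosome 10 from 75358503 to 75358562 in mm9, and its exon or UTR was not determined here.

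Herpud1, a membrane protein that organises the ERAD ubiquitin ligase complex and is itself strongly stress-induced, stood at the other end. It read 54359 in the knockout pool against 40823 in the wild-type pool and was 1.58-fold higher, and 96.6% of all genes had a lower or equal ratio. It was above 0 in all 14 settings, yet short of 1.5-fold without scaling, with quantile or loess normalization and with spike-in scaling. Edem1, a mannose-trimming lectin that hands glycoproteins to ERAD, read 5608 in the knockout pool against 5486 in the wild-type pool, a scaled ratio of 0.28. Its relative Edem2 had -0.13. The core ligase showed little difference: Syvn1, the ubiquitin ligase HRD1, had -0.18, and Sel1l, its partner, had 0.00 at 1788 in the knockout pool and 2119 in the wild-type pool.

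The 4 translocon genes were all below 0, with a median of -0.26. Ssr1, the alpha subunit of the translocon-associated complex, had -0.59 as the median of 3 probes that disagreed in size, at -0.87, -0.59 and -0.15. Its brightest probe was the one nearest 0, at 8121 in the knockout pool against 10674 in the wild-type pool. Ssr3, the gamma subunit, had -0.22 from 2 probes (-0.26 and -0.18). Sec61a1, the channel itself, read 24307 in the knockout pool against 35312 in the wild-type pool (-0.29), and Sec61b, its beta subunit, had -0.12 from 3 probes between -0.23 and -0.04. The Sec61b probe at -0.23 is also placed on another chromosome than its gene, 15 and not 4. The COPII coat subunits, which select and wrap cargo, were lower by less than 1.5-fold: Sec24d had -0.31 and Sec23b -0.20.

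**Figure D3:**
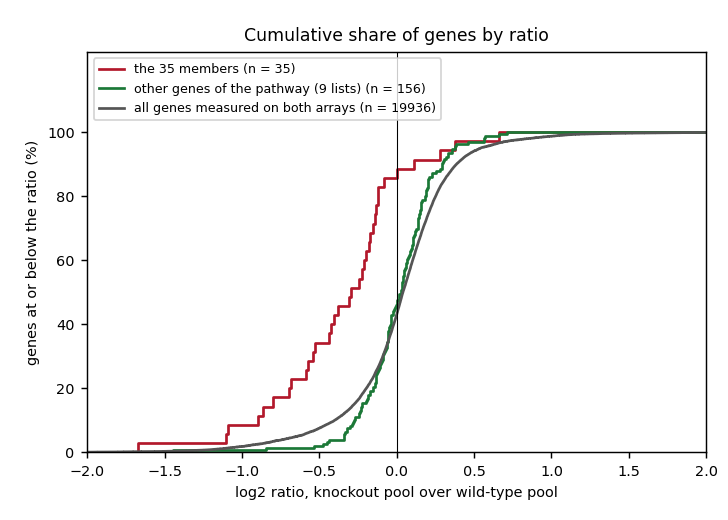
Share of genes (%) at or below each log2 ratio of the knockout over the wild-type pool, for the 35 members, for 156 other genes of the pathway and for all 19936 measured genes. The member curve lies left of the others over most of its range, with its median at -0.29 against 0.03 and 0.04.

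Many members had bright probes: with all genes split by mean signal into 10 bins of like size, 8 members fell in the brightest bin and 11 in the next. Among all genes of the brightest bin 1.25% were at least 1.5-fold lower and the median ratio was 0.11, and in the next bin 3.31% were and the median was 0.07. In the dimmer bins, which held the other members, 3.06% to 10.1% were at least 1.5-fold lower and the medians lay between 0.00 and 0.09. The background share was thus higher for dim members such as Fkbp11 and Hyou1. The members' median of -0.29 was below the median of every bin as well as below that of all genes. Of the 9 members with several probes, 8 had every probe below 0, and Dnajb11 was the exception. Under 13 other settings of scaling, background, filter and probe summary, the same 30 members stayed below 0 wherever they were measured. Derl3 and Sdf2l1 were at least 2-fold lower in all 14 settings, and together with Creld2, Ero1lb and Manf they were the 5 members at least 1.5-fold lower in every one. In single settings, 2.91% (normexp) to 12.2% (no scaling) of all genes were at least 1.5-fold lower. At least 2-fold lower were 0.642% (normexp) to 3.98% (no dim-probe filter). The share of all genes meeting these criteria in every setting was not counted. Some settings could hardly change a member: the deposited table had nearly the same divisors, every member probe was well above background, and 26 members had 1 probe.

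**Figure D4:**
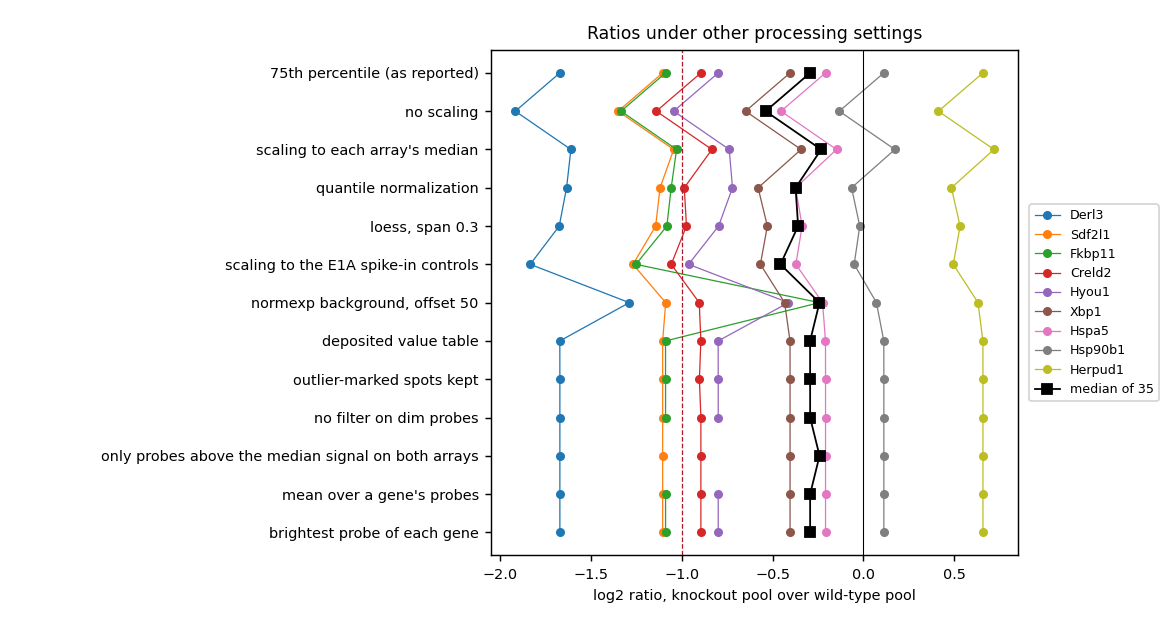
Log2 ratio of 9 members (coloured points) and the median of the members measured (black squares, 35 or fewer) under the reported processing, at the top, and other processing settings. Derl3 and Sdf2l1 stay left of the dashed 2-fold line throughout. Derl3, Fkbp11 and Hyou1 shrink with the normexp background. Fkbp11 and Hyou1 have no point where bright probes alone were kept, and Hsp90b1 crosses 0.

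Members with an ERSE had a median ratio of -0.39, ranging from -1.67 (Derl3) to 0.11 (Hsp90b1), and the 19 members whose window lacked these letters had -0.22, ranging from -1.11 to 0.66. The ranges overlapped widely: Sdf2l1 and Fkbp11 were past 2-fold without a match, and Hsp90b1 held 2 matches. A further 27 genes outside the 35 held the element in their window, and 12 of them were measured. Their median was -0.08, between -0.36 and 0.43. Of these 12, 7 were below 0, where 43.1% of all genes were, and 0 were at least 1.5-fold lower, where 5.93% of all genes were. So few genes cannot be told from these shares. The ERSE-II letters, found in 12 genes (0.0444%), were held by Herpud1 and by Dnajb11, where they lie after the start. The XBP1 element TGACGTGG was found in Sec24d (in 0.714% of all genes), and TTGCATCA, the core of the element read by ATF4 with C/EBP proteins, in Herpud1 (in 1.03%), 112 to 105 bases before its start. A match is a description of letters and not a measured binding site.

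Other genes of the ER pathway, taken from 9 lists of which 156 of 160 genes were measured, had a median close to that of all genes. Pooled, it was 0.03, with 73 below 0, and 2 (1.28%) were at least 1.5-fold lower, beside 5.93% of all genes. The next genes are among the 4 with the largest ratio, in either direction, in each list.

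The PERK branch, the arm that slows translation and induces ATF4, had a median of 0.00 over 13 genes (0.06 with median scaling). Nupr1, a stress-induced chromatin protein, was far lower, at 216.8 in the knockout pool against 701.8 in the wild-type pool (-1.45). Atf3, a stress-induced transcription factor, had -0.53, while Cebpb had 0.66 and Trib3, a pseudokinase induced by ATF4, 0.57. Named after their values were seen, Eif2ak3, which encodes PERK, had -0.24, Atf4 -0.01 and Ddit3, the stress factor CHOP, -0.33. The other sensors and bZIP factors had a median of 0.06 (13 genes, below 0 without scaling, with loess and with spike-in scaling). Creb3l1 had 0.57, the kinase gene Map3k5 0.46, Creb3l2 -0.23 and Bax, which promotes cell death at mitochondria and the ER, -0.45. Substrates of IRE1's decay activity had 0.20 over 11 genes, or -0.05 without scaling, with Ces1g (0.57), Cyp2e1 (0.38) and Cyp1a2 (0.36), all abundant hepatocyte transcripts, on the high side.

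The other chaperones had a median of 0.05 (16 genes), which was below 0 in 4 of 7 other settings. Serpinh1, the collagen chaperone HSP47, was 1.5-fold or more lower at 590 in the knockout pool against 1257 in the wild-type pool (-0.85). Uggt1, the glycoprotein folding checkpoint, had -0.34, Lrpap1 -0.29 and Cdnf, the paralogue of Manf, 0.30. The other oxidative folding genes had -0.09 (22 genes), with Tmx3 (-0.32), Erp29 (-0.32), Fkbp14 (-0.30) and Tmx4 (0.36). Thus none of these isomerases and oxidases approached the -0.86 of Ero1lb.

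Other ERAD genes leaned the opposite way, with a median of 0.14 and 21 of 25 above 0 (-0.10 without scaling, and also below 0 with spike-in scaling). The rhomboid protease gene Rhbdd1 had 0.31, Ubxn8 0.29, the ubiquitin ligase gene Marchf6 0.29 and Aup1 0.28. None of the 25 was past 1.5-fold, so the ratios of Derl3 and Herpud1 had no like among them. Other translocation genes had -0.06 (21 genes), with Srprb, a subunit of the signal recognition particle receptor, at -0.48, Sec61a2 and Tram1 at -0.19 each and Sec63 at 0.20. Oligosaccharyltransferase subunits, which add sugar chains in the lumen, had -0.04 (12 genes, 0.02 with median scaling), with Rpn1 at -0.44, Ostc at -0.23, Tmem258 at -0.20 and Tusc3 at 0.20. Other COPII and cargo receptor genes had 0.07 (23 genes, below 0 without scaling and with spike-in scaling), with Sar1b at 0.37, Mia3 at 0.33, Sec24a at 0.32 and Tmed9 at -0.34.

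**Figure D5:**
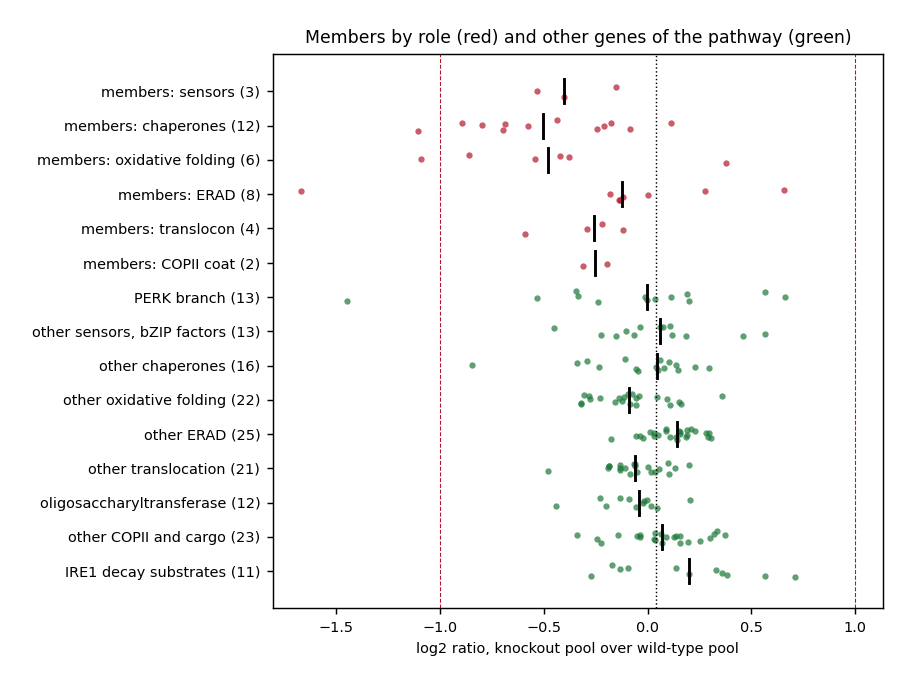
Log2 ratio of the knockout over the wild-type pool for members by role (red) and for other genes of the pathway (green), with the number measured in brackets. Black bars are medians, the dotted line is the median of all genes and dashed lines mark 2-fold. The red medians lie between -0.51 and -0.12 and the green ones between -0.09 and 0.20.

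Derl3 and Fkbp11 are known from professional secretory cells such as plasma cells and pancreatic acinar cells, so markers of these and of other cell types were read beside the members. Plasma cell markers had a median of -0.15 over 8 of 12 genes, with a summed scaled signal of 8.02 in the knockout pool and 7.32 in the wild-type pool. Sdc1 carried most of that sum, and without it the sum was 3.09 in the knockout pool and 3.21 in the wild-type pool. Most of the rest was Txndc5, also one of the other oxidative folding genes, which read 2619 in the knockout pool against 3227 in the wild-type pool. Sums here and below take every probe of a gene, also those not well above background, and follow the brightest genes. Fcrl5 thus added little, though its 1 probe well above background read 5915 in the knockout pool against 6944 in the wild-type pool. Pou2af1 had -1.06, Tnfrsf13b -0.64, Prdm1 -0.50 and Sdc1, also a hepatocyte gene, 0.26. Tnfrsf17 was not well above background on either array. Irf4 was well above it in the wild-type pool alone, at 12.6 in the knockout pool against 35.3 in the wild-type pool. Of the defining transcripts named after their values were seen, Jchain had -0.09 and Mzb1 -0.21. Acinar markers had -0.09 over 7 of 19 genes (above 0 with quantile normalization and with normexp), with a summed signal of 2.50 in the knockout pool and 1.77 in the wild-type pool. Without Amy2a5 that sum was 0.840 in the knockout pool and 0.837 in the wild-type pool. Cela1 had -1.47, Zg16 -0.41, Ctrb1 0.23 and Amy2a5 0.84, while Prss1, Prss2, Pnlip, Try4, Try5 and Ptf1a were not well above background on either array.

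Kupffer cell and macrophage markers were at least 1.5-fold lower in 11 of 11, with a median of -0.93 and a summed signal of 45.4 in the knockout pool against 95.5 in the wild-type pool. Hepatocyte markers had a median of 0.18 over 10 of 10 (below 0 without scaling and with quantile normalization), at 1900 in the knockout pool and 1672 in the wild-type pool. B cell markers had -0.72 over 8 of 10 (-0.27 with normexp), at 0.784 in the knockout pool and 1.35 in the wild-type pool, and T and NK cell markers -0.79 over 8 of 10 (-0.41 with normexp), at 2.41 in the knockout pool and 3.04 in the wild-type pool. Stellate markers had -0.36 over 10 of 10, with 9 below 0, at 53.0 in the knockout pool and 55.8 in the wild-type pool. Most of both sums was Dcn, the 1 gene above 0, which read 44472 in the knockout pool against 51474 in the wild-type pool (0.03). Endothelial markers had -0.23 over 10 of 10, at 51.4 in the knockout pool and 57.1 in the wild-type pool. Cholangiocyte markers had -0.11 over 8 of 8 (0.09 with normexp), at 1.13 in the knockout pool and 1.17 in the wild-type pool. The part of these cell types in the ratios of the 35 genes was not tested.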

How the data were processed

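Liver RNA of Pnpla8-/- and wild-type pools was hybridised to 1 array each, grouped by the labelled genotype. Per the labels' protocols, 200 ng was amplified and labelled with Cy3. Per the submitters' processing notes, the authors read spot intensity in Agilent Feature Extraction 11.5.1.1. The deposited scanner files hold linear intensity, raw and processed. Per the file headers both arrays lay on the same slide and in the same scan, and the array design refers to mm9. The deposited value table holds intensity divided by 1018.65 (knockout) and 1207.25 (wild type), with column medians of 0.0763 (knockout) and 0.0800 (wild type). It is linear and not centred, and how the authors chose the divisors is not stated in any header or label. All per-sample columns were mapped to a sample (0 unmapped).

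Control spots and spots with a feature outlier mark (170 on the knockout and 119 on the wild-type array) were left out. The processed signal was divided by the 75th percentile, log2 taken and spots of a probe averaged. Probes not well above background on either or both arrays were left out, and the median over the remaining probes stands for a gene. The summed signals of marker lists are the exception: they take the median over all probes of each gene, with none left out as dim. Probes were named by RefSeq accession (28278), symbol (2208), synonym (174), member rule (47) or the file's name (8722). A probe named D530017H19Rik whose accession is that of Syvn1 was not counted as a member.

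No test and no p-value is given. Named genes were all members, Pnpla8, and up to 4 genes per list with the largest absolute ratio; some genes of the lists are not reported here. Outside this rule, and after their values were seen, the neighbours of Pnpla8, 5 stress or plasma cell genes (Eif2ak3, Atf4, Ddit3, Jchain, Mzb1) and markers not well above background were named. So were Kdelr3 and Clgn, not well above background on the knockout array, and Txndc5, Fcrl5 and Dcn, which bear on the summed signals. The members, lists and settings were chosen with earlier results of these data known, and the search for promoter letters was added after seeing them. Alternatives were other scalings, normexp, the deposited table, other filters and probe summaries. Python 3.11.15, pandas 2.3.3, numpy 2.4.6, statsmodels 0.14.6 (loess, span 0.3) and limma 3.58.1 in R 4.3.3 (normexp, offset 50) were used. The steps were tested on simulated data.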

Additional observations from a re-analysis of the deposited data

How the results depend on the processing

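Scaling set the size of the members' median and not its direction. Without scaling the all-gene median moved by -0.25, and the members' median was -0.54, with 6 members at least 2-fold lower (3.80% of all genes were), 16 at least 1.5-fold lower (12.2%) and 0 at least 1.5-fold higher (2.12%). The group medians were then -0.65 for the sensors, -0.75 for the chaperones, -0.73 for oxidative folding, -0.37 for ERAD, -0.50 for the translocon and -0.50 for COPII. Scaling to 8 E1A spike-in controls moved the all-gene median by -0.16 and gave a members' median of -0.46, with 5 members at least 2-fold lower (3.05% of all genes were), 14 at least 1.5-fold lower (9.47%) and 0 at least 1.5-fold higher (2.60%), and group medians of -0.57 (sensors), -0.67 (chaperones), -0.65 (oxidative folding), -0.29 (ERAD), -0.42 (translocon) and -0.42 (COPII). These moves follow from a constant shift of every ratio: relative to all genes the members' median was -0.33 in each case. Quantile normalization and loess each gave 0 members at least 1.5-fold higher (4.47% of all genes were with quantile normalization and 4.07% with loess) and a sensor median of -0.53. Normexp gave a chaperone median of -0.39. With it 2 members were at least 2-fold lower (0.642% of all genes were) and 6 at least 1.5-fold lower (2.91%). With bright probes alone, 2 of 33 members were at least 2-fold lower (1.48% of all genes were) and 7 at least 1.5-fold lower (4.97%). Over all settings the members' median relative to all genes ran from -0.41 to -0.28. The members' median and the 6 group medians stayed below 0 in every setting. Of single members, Hsp90b1 (0.11) and Sel1l (0.00) turned below 0 in some settings, and the 33 others kept their sign wherever they were measured. Medians of other lists that turned sign are marked beside their values. Over all genes, 368 were at least 2-fold lower and 257 higher, against 758 and 115 without scaling, 608 and 138 with spike-in scaling, 305 and 312 with median scaling, 128 and 135 with normexp, 390 and 223 with loess, 229 and 148 among bright probes and 1235 and 994 without the dim-probe filter. Leaving out the probes on another chromosome (-0.30) or Dnajb9 (-0.27) was chosen after seeing the data. Counting genes at their bound changed nothing for the members, since every one was measured. Of the members' single values over these settings, 388 moved by less than 0.095, the SD between probes of a gene, and 99 by more. The 388 include values that had no room to move. Examples are the deposited table with its nearly equal divisors, the dropped dim-probe filter and other summaries of members with a single probe. The 388 are thus no measure of stability. No paired analysis was possible because each genotype had 1 array, and for the same reason no replicate could be left out. Signal over background limits the dim members Fkbp11 and Hyou1. Normexp also drew Derl3 (to -1.29), Hspa13 (-0.46), Ssr1 (-0.35) and Ero1l (0.28) nearer to 0.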
